A study of Homo sapiens with 4 samples.

Results

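The genes described here regulate the splicing of messenger RNA: the SR proteins, the kinases that phosphorylate them, the hnRNPs and their partners. They were 52 genes listed by symbol, and a gene was analysed through the probe sets that the array annotation assigns to it alone. Of the 52 genes, 49 had such a probe set, 192 probe sets in all, among 19775 genes and 41091 probe sets with 1 gene on the array. SRSF2, SRSF9 and HNRNPH2 had only probe sets that name another gene as well, and their values are given among the closing observations. All 49 genes lay above the floor of 66.4 on all 4 arrays, so none of them was lost to a filter on low signals. The floor is the median of all deposited signals other than controls, and lower values were raised to it before logarithms were taken.

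The study used Panc1, an established human pancreatic cancer cell line, grown in RPMI1640 medium with fetal bovine serum. Cultures received nothing, romidepsin, tamoxifen, or romidepsin plus tamoxifen (here the combination), and the treatments lasted 24 hours. Romidepsin inhibits histone deacetylases, which remove acetyl groups from histones and other proteins, while tamoxifen binds the estrogen receptor and modulates it. Each of the 4 groups had 1 Affymetrix array. The labels name no dose, no vehicle and no genetic change. With 1 array a group there was no test between groups and no p-value, and every difference describes these arrays only; fewer cells with a transcript and less of it per cell cannot be told apart in them. The words rose and fell are kept for a difference of at least 2-fold, a log2 difference of 1, in the brightest probe set of a gene.

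SR proteins bind exonic enhancers through an RNA recognition motif and recruit the spliceosome through a domain rich in arginine and serine. Many hnRNPs bind silencers and act against them. CLK kinases in the nucleus and SRPK kinases, mainly in the cytoplasm, phosphorylate the arginine-serine domain and so set where SR proteins reside and what they bind. Many genes of these families also make transcripts with a poison exon or a retained intron, which are degraded by nonsense-mediated decay or held in the nucleus.

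Between the arrays, the ratio of actin signal at the 3′ end to that at the 5′ end, which increases as RNA degrades, was 1.21 untreated, 1.18 with romidepsin, 1.39 with tamoxifen and 1.73 in the combination. The same ratio for GAPDH was nearly level, at 1.07, 1.03, 1.04 and 1.07 in that order. Spike-in controls of the hybridization were at 0.78 times the untreated level with tamoxifen and 0.82 times in the combination, against 1.01 times with romidepsin. Of 8 markers listed for this line 6, including KRT8, KRT18 and VIM, were above the floor on all arrays. KRT19 was below the floor on all 4, and EPCAM was below it in untreated cells. Of 13 markers of leukocytes, endothelium, fibroblasts and other pancreatic cells with a probe set, 9 were below the floor on all arrays; COL1A1, DCN and PECAM1 were above it on all 4 and VWF on 2. Their summed signal was 9629 untreated, 10322 with romidepsin, 9576 with tamoxifen and 6878 in the combination. COL1A1 alone gave 9282, 9773, 9163 and 6365 of it. The summed signal of the markers of the line was 76188, 62509, 58335 and 39180 in the same order. The part of these values in the results was not tested.

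The splicing regulators were mostly lower with romidepsin and in the combination than in untreated cells, while a few, led by TTC14, LUC7L3, CLK1 and CLK4, had higher signals on both arrays with tamoxifen than in untreated cells. With romidepsin 9 of the 49 fell and 0 rose, against 9.27% of all genes measured falling and 14.3% rising. Their median log2 difference was -0.61, beside 0.06 over all 13619 genes measured. Below 0 lay 42 of the 49, or 85.7%, beside 46.4% of all genes. With arrays centred on their medians 16 fell, where 12.7% of all genes did. With tamoxifen 1 rose and 0 fell, with a background of 3.7% and 1.07%, and the median was -0.04, beside 0.01 over all genes. Scaled to the spike-in controls, 4 rose, where 11.5% of all genes did, and the median was 0.32, beside 0.33 over all genes.

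In the combination 16 of the 49 fell and 4 rose against untreated cells, where 14.4% of all genes measured fell and 19.8% rose. The median was -0.69, beside 0.09 over all genes. The counts moved with the scaling of the arrays. With arrays centred on their medians 24 fell and 2 rose, where 20.9% of all genes fell and 14.7% rose. Scaled to the spike-in controls 11 fell and 5 rose, where 9.69% of all genes fell and 25.9% rose. The median of all genes became -0.17 and 0.34 under these scalings. The counts also moved with the choice of probe set. Without probe sets that can match several transcripts, 34 of the genes were measured, of which 6 fell and 5 rose, where 12.9% of all genes fell and 20.9% rose. The median of the 34 was -0.24, beside 0.14 over all genes.

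Against romidepsin alone, the combination array had 6 of the 49 genes higher and 1 lower, with a background of 4.07% and 2.27%. The split was 7 and 0 when arrays were scaled to the spike-in controls, with a background of 9.63% and 0.648%. It was 3 and 1 with the floor at the 75th percentile of signals, with a background of 3.09% and 1.52%. Of the 49, 29 lay below 0, or 59.2%, beside 52.6% of all genes, and the median was -0.22, beside -0.03 over all genes. That median changed sign under 3 alternatives: it was 0.22 without probe sets that can match several transcripts, 0.089 with spike-in scaling and 0.0047 with the median over probe sets. Against tamoxifen alone 1 was higher and 9 were lower, with a background of 14.8% and 11.8%. The 9 became 14 with arrays centred on their medians, where 14.6% of all genes were lower. Without probe sets that can match several transcripts they became 5 of 34, where 11.2% were. The median difference was -0.53, beside 0.05 over all genes. The comparisons share arrays and are not independent of each other.

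**Figure D1:**
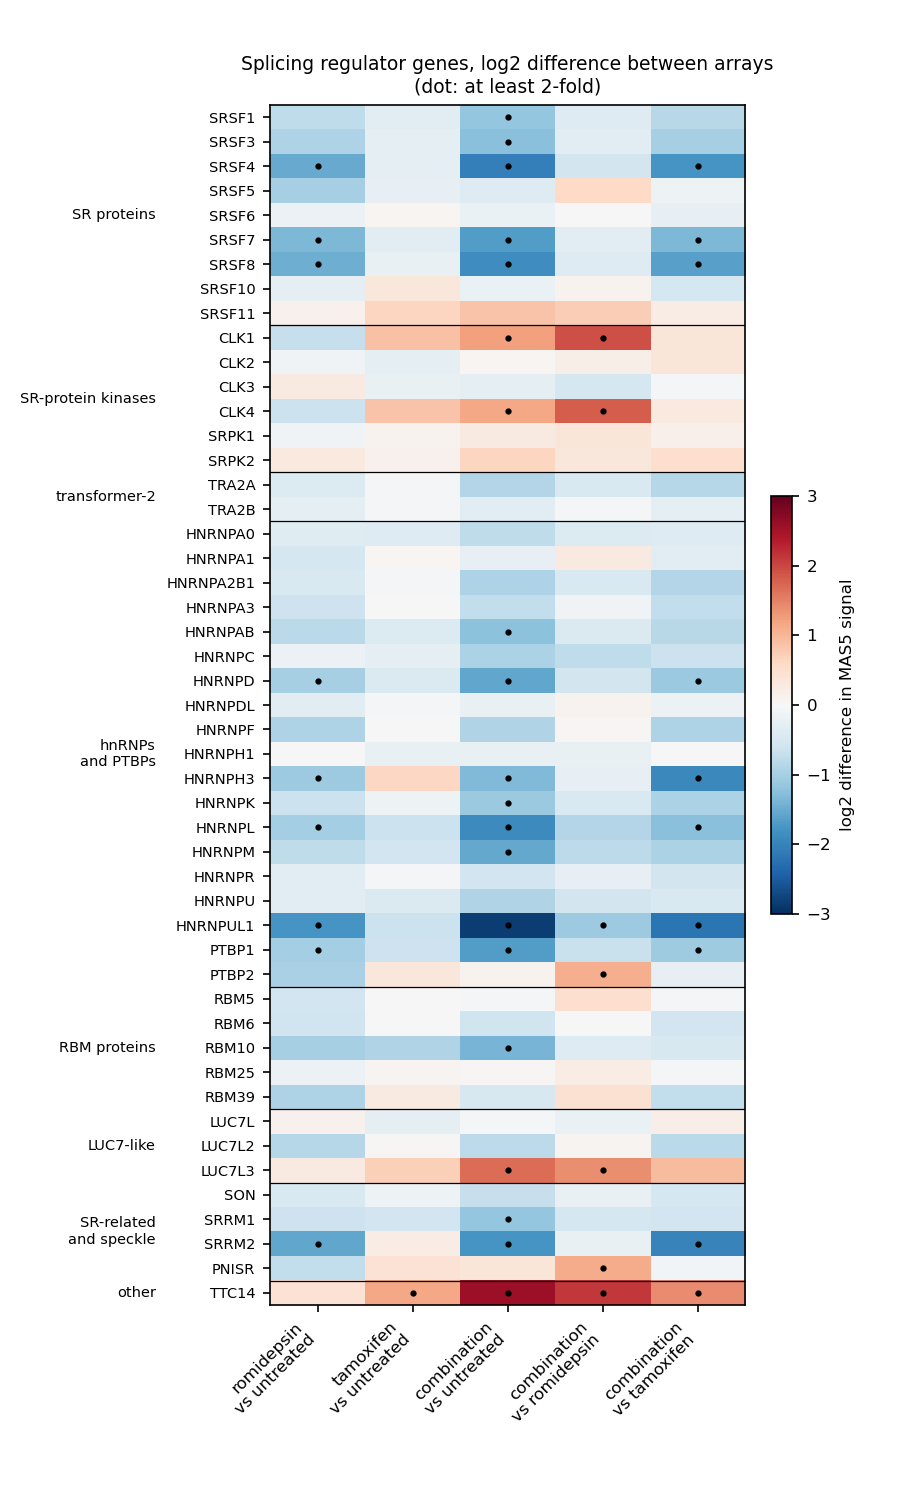
Each row is 1 of the 49 splicing regulator genes, grouped by role, and each column 1 comparison of 2 arrays; colour gives the log2 difference of the MAS5 signal, red higher and blue lower, and a dot marks at least 2-fold. Blue fills most of the SR protein and hnRNP rows in the romidepsin and combination columns, while CLK1, CLK4, LUC7L3 and TTC14 are red with dots in the combination against untreated cells and against romidepsin.

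**Figure D2:**
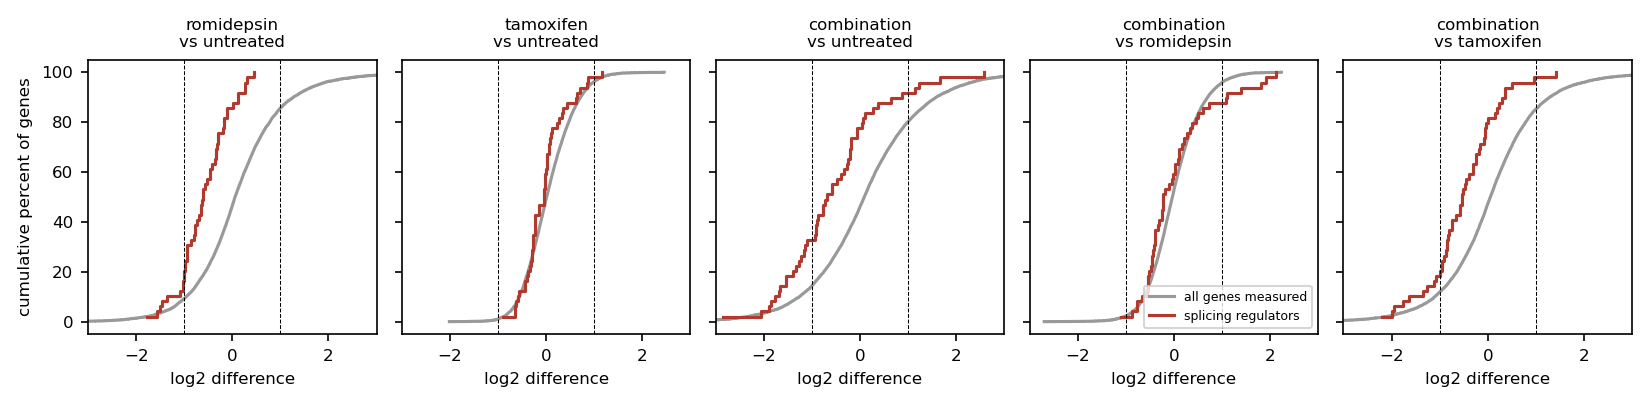
Each panel gives, for 1 comparison, the cumulative percent of genes (vertical axis) up to a log2 difference (horizontal axis, drawn from -3 to 3) for all genes measured in grey and the 49 splicing regulators in red; dashed lines mark 2-fold. The red curve lies to the left of the grey one in the romidepsin, combination and combination against tamoxifen panels, with medians of -0.61, -0.69 and -0.53, and near it with tamoxifen, at -0.04.

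The combination array was the lowest of the 4 for 27 of the 49 genes and the romidepsin array for 15. Over the 11058 genes above the floor on all arrays those shares were 33.7% and 16.0%, and for the regulators 55.1% and 30.6%. The untreated array was the highest for 26 of the 49, or 53.1%, and for 29.7% of those 11058 genes.

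The kinases of SR proteins had a median above 0 in the combination, unlike the SR proteins and the hnRNPs. Of 6 measured, 2 rose and 0 fell against untreated cells, with a background of 19.8% and 14.4%. Their median was 0.45, beside 0.09 over all genes. CLK1, a dual-specificity kinase of SR proteins, had a signal of 385 in untreated cells, 238 with romidepsin, 708 with tamoxifen and 904 in the combination. Its relative CLK4 followed the same order, at 336, 213, 605 and 747. In both genes romidepsin gave the lowest and the combination the highest signal.

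Against untreated cells CLK1 rose 2.35-fold and CLK4 2.22-fold in the combination. Against romidepsin alone the differences were 3.80-fold and 3.50-fold. With arrays centred on their medians the combination exceeded untreated cells by log2 differences of 0.94 for CLK1 and 0.86 for CLK4, just under 2-fold. The other probe set of CLK4 above the floor read 130, 134, 256 and 259, so that it shared the difference between arrays with and without tamoxifen but not the low value with romidepsin. On it the combination lay above untreated cells by 0.998 and above romidepsin by 0.95 on the log2 scale, just short of 2-fold. With the floor at the 75th percentile CLK4 also stayed short, at 0.87 in both comparisons. CLK1 had 1 probe set, so its values have no second reading.

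The 4 other kinases stayed within 2-fold in all 5 comparisons by their brightest probe sets. CLK2 had signals of 799, 745, 651 and 838 in the order untreated, romidepsin, tamoxifen and combination, and CLK3 1052, 1258, 897 and 876. SRPK1 lay between 2193 and 2830. SRPK2 was 1.56-fold higher in the combination than untreated, from 1292 to 2010, and its 3 other probe sets with signals above the floor on all arrays had log2 differences between 0.57 and 0.76. These kinases thus showed neither the low romidepsin value nor the size of difference seen in CLK1 and CLK4.

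Of the LUC7-like proteins, which help U1 snRNP to select the 5′ splice site, only LUC7L3 differed 2-fold by its brightest probe set. It had a signal of 1946 untreated, 2339 with romidepsin, 3188 with tamoxifen and 6175 in the combination. The combination was 3.17-fold above untreated cells, 2.64-fold above romidepsin and 1.94-fold above tamoxifen. All 6 of its measured probe sets were higher in the combination than untreated, 5 of them at least 2-fold. LUC7L read 1889, 2053, 1566 and 1800.5, and LUC7L2 read 838, 461, 855 and 489, with the arrays that had romidepsin lower. Another probe set of LUC7L2 read 568, 308, 545 and 230, a log2 difference of -1.31 between the combination and untreated cells, and 3 that also name a read-through gene had -1.11, -1.26 and -2.88.

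TTC14, a tetratricopeptide repeat protein listed with these genes, had the largest rise among them. Its signal was 396 untreated, 538 with romidepsin, 882 with tamoxifen and 2350 in the combination. It was the 1 gene of the 49 that rose with tamoxifen alone, 2.23-fold, and it rose 5.94-fold in the combination. The combination was also 4.37-fold above romidepsin and 2.66-fold above tamoxifen. All 3 of its measured probe sets were at least 2-fold higher in the combination than untreated. The other probe set above the floor on all arrays read 118, 196, 279 and 445.

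PNISR, an SR-related protein of nuclear speckles, read 519 untreated, 311 with romidepsin, 706 with tamoxifen and 672 in the combination. PTBP2, the neuronal paralogue of the polypyrimidine tract protein, read 146, 74.0, 187 and 157. In both genes the romidepsin array alone was low, and the combination was 2.16-fold and 2.13-fold above it (log2 0.72 for PNISR with the floor at the 75th percentile) while staying within 2-fold of untreated cells. The romidepsin signal of PTBP2 lay just above the floor. With arrays centred on their medians its log2 difference was 0.98, just under 2-fold.

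SRSF11, an arginine-serine protein of speckles, read 6905 untreated, 7535 with romidepsin, 10741 with tamoxifen and 12579 in the combination, 1.82-fold above untreated cells. SRSF5 read 2090, 1051, 1769 and 1593, with the lowest value for romidepsin alone. Both stayed within 2-fold in every comparison by their brightest probe sets. Other SRSF11 probe sets were highest with tamoxifen alone. They read 263, 249, 536 and 440, a log2 difference of 1.03 with tamoxifen, and 183, 114, 232 and 192.

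**Figure D3:**
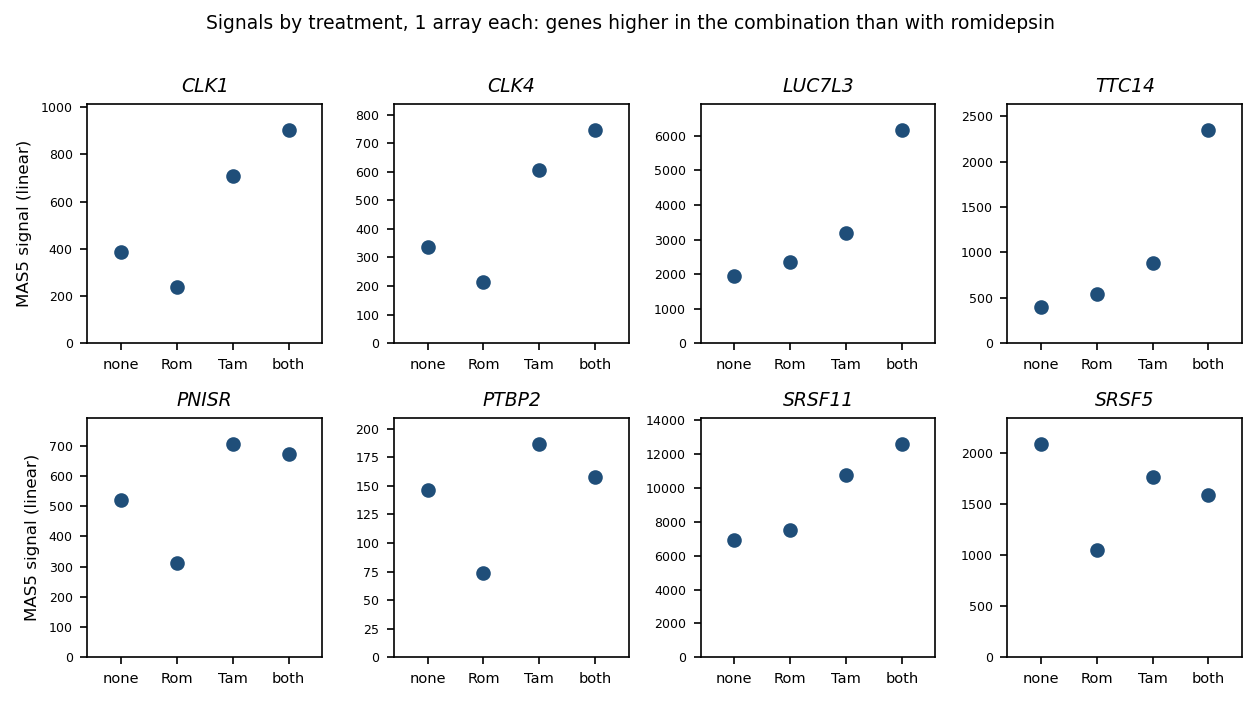
Each panel plots the linear MAS5 signal (vertical axis, from 0) of 1 gene on the 4 arrays, 1 point an array: none (untreated), Rom (romidepsin), Tam (tamoxifen) and both (the combination). CLK1, CLK4, PNISR, PTBP2 and SRSF5 have their lowest point with romidepsin alone, and CLK1, CLK4, LUC7L3, TTC14 and SRSF11 their highest with both drugs.

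The sequence before the start site is shown for the 4 genes that rose in the combination and for HNRNPH3 and HNRNPM, which fell, so that genes moving opposite ways can be set side by side. The 250 bases before the start are given 5′ to 3′ on the strand of the gene, from RefSeq on GRCh38.p14, which held 71 entries for 48 of the 52 genes. Capitals mark a match to CACGTG on either strand or, in TTC14, to TTTCGCG on either strand. No printed window held more than 1 match. The letters TGACGTCA were searched in the same way. CLK1 lies at chr2:200864659-200864908 on the minus strand, the outer of 2 start sites, and CLK4 at chr5:178627051-178627300 on the minus strand. LUC7L3 lies at chr17:50719353-50719602, TTC14 at chr3:180601913-180602162, HNRNPH3 at chr10:68331443-68331692, the outermost of 3 start sites, and HNRNPM at chr19:8444725-8444974, all on the plus strand.
CLK1: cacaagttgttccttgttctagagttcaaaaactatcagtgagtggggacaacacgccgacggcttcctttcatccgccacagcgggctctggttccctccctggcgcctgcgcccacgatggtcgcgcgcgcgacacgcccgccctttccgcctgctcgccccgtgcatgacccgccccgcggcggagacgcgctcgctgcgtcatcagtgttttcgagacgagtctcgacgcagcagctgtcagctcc
CLK4: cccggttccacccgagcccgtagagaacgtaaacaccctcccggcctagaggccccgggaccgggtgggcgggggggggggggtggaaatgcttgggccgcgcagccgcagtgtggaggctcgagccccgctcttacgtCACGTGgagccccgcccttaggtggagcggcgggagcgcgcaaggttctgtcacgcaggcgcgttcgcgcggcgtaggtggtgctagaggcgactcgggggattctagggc
LUC7L3: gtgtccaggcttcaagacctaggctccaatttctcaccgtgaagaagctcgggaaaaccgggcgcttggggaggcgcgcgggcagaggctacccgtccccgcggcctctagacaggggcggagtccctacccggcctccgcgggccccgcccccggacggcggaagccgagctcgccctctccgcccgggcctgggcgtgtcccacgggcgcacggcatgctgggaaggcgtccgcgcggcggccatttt
TTC14: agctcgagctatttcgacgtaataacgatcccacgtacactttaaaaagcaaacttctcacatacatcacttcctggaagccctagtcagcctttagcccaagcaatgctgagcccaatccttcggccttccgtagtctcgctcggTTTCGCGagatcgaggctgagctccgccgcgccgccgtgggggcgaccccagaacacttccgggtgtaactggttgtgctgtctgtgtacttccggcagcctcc
HNRNPH3: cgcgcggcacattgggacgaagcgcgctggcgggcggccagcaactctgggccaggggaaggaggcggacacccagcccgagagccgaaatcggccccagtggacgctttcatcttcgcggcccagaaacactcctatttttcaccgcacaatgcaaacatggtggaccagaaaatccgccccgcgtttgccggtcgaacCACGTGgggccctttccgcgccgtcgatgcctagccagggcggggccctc
HNRNPM: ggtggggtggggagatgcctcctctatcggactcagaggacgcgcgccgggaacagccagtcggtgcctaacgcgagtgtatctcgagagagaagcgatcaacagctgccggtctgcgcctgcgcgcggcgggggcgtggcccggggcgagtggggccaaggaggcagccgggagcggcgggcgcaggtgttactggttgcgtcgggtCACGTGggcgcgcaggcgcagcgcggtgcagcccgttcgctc

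CACGTG stood in CLK4, which rose, and in HNRNPH3 and HNRNPM, which fell. Among the 71 entries of the listed genes 10 held it, those of CLK2, CLK4, HNRNPA3, HNRNPD, HNRNPDL in both of its entries, HNRNPH2, HNRNPH3, HNRNPM and PNISR. Among all 35116 entries 6.34% held it. TTTCGCG was in 1 of the 71, that of TTC14, and in 1.10% of all entries, and TGACGTCA in 0 of the 71 and 1.65% of all. These letters describe the windows only. By gene, 1 of the 4 that rose in the combination held CACGTG, 3 of the 16 that fell, and 4 of 26 with an entry that did neither.

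The SR proteins were lower as a group. Of 9 measured, 3 fell with romidepsin and 5 in the combination, 0 rose, and the medians were -0.94 and -1.16. Of all genes measured, 9.27% fell and 14.3% rose with romidepsin, and 14.4% fell and 19.8% rose in the combination. SRSF4, which works in both constitutive and alternative splicing, had a signal of 4348 untreated, 1528 with romidepsin, 3573 with tamoxifen and 1047 in the combination. The combination was 4.15-fold below untreated cells and romidepsin 2.85-fold. A much dimmer SRSF4 probe set read 157, 84.8, 107 and 84.0. On it the log2 differences were -0.89 with romidepsin and -0.90 in the combination, short of 2-fold. SRSF8, a close relative of SRSF2, read 4050, 1461, 3465 and 1117, a fall of 3.63-fold in the combination. On the brightest probe sets of both genes the 2 arrays without romidepsin were high and the 2 with it were low.

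SRSF7, which also takes part in export of messenger RNA, read 11201 untreated, 4382 with romidepsin, 8953 with tamoxifen and 3515 in the combination. It fell 2.56-fold with romidepsin and 3.19-fold in the combination. The fall in the combination rested on 1 of its probe sets. The 3 others had log2 differences of -0.49, -0.12 and 0.42 between the combination and untreated cells. With romidepsin all 4 probe sets were lower, 2 of them at least 2-fold. The dimmer of these 2 read 219 untreated and 102 with romidepsin. Without probe sets that can match several transcripts the difference with romidepsin was -0.53.

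SRSF3, the smallest SR protein and a regulator of its own poison exon, read 15316, 7997, 12635 and 6377. SRSF1, the founding member of the family, read 14950, 8753, 11933 and 6675. The combination was 2.40-fold below untreated cells for SRSF3 and 2.24-fold for SRSF1. All 4 measured probe sets of SRSF3 were lower. For SRSF1 6 of 8 were, and its brightest probe set that matches no other transcript had a log2 difference of only -0.13. Scaled to the spike-in controls SRSF3 and SRSF1 stayed short of 2-fold, at -0.98 and -0.87. SRSF6 read 3240, 2866, 3368 and 2829, and SRSF10 read 2874, 2352, 3609 and 2516, both within 2-fold throughout by these probe sets.

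The transformer-2 proteins, SR-like activators of exons with GAA-rich enhancers, did not differ 2-fold by their brightest probe sets. TRA2A read 4473 untreated, 3356 with romidepsin, 4360 with tamoxifen and 2428 in the combination, 1.84-fold below untreated cells. TRA2B read 13269, 10750.5, 12950 and 10541.

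Of the 19 hnRNPs and PTB proteins measured, 5 fell with romidepsin and 8 in the combination, and 0 rose against untreated cells. The background was 9.27% falling and 14.3% rising with romidepsin, and 14.4% and 19.8% in the combination. The medians of the 19 were -0.65 and -0.92. The median with tamoxifen was -0.22 with 0 past 2-fold. HNRNPUL1, a nuclear protein also tied to the DNA damage response, had the largest fall of all the genes described. Its signal was 3791 untreated, 1117 with romidepsin, 2417 with tamoxifen and 525 in the combination. The combination was 7.22-fold below untreated cells, 4.60-fold below tamoxifen and 2.13-fold below romidepsin. It was the 1 gene of the 49 that was lower 2-fold in the combination than with romidepsin alone. When arrays were scaled to the spike-in controls that last difference was -0.78 on the log2 scale, short of 2-fold. Its second probe set read 831, 292, 576 and 147.

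HNRNPL, which binds CA repeats, read 15691 untreated, 7686 with romidepsin, 10028 with tamoxifen and 4200 in the combination. It fell 2.04-fold with romidepsin and 3.74-fold in the combination. PTBP1, the main repressor of neuronal exons, read 14198, 6992, 9246 and 4410, falls of 2.03-fold and 3.22-fold. With quantile normalization the romidepsin differences of HNRNPL and PTBP1 were both -0.88 on the log2 scale, short of 2-fold. HNRNPM read 15446, 9083, 10309 and 5313, 2.91-fold lower in the combination, but its brightest probe set that matches no other transcript had a log2 difference of -0.59. On the brightest probe sets of these 3 genes, each drug alone gave a value between those of untreated cells and of the combination.

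HNRNPH3 went another way with tamoxifen. It read 4496 untreated, 2118 with romidepsin, 6867 with tamoxifen and 1791 in the combination, so that tamoxifen alone was the highest array and the combination the lowest. The tamoxifen difference from untreated cells was 0.61 on the log2 scale on this probe set, but only 0.20, 0.03 and 0.15 on the others. The combination was 2.51-fold below untreated cells and 3.83-fold below tamoxifen on the brightest probe set. All 4 of its probe sets were at least 2-fold lower in the combination than untreated.

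HNRNPD, also called AUF1, which binds AU-rich elements, read 13369, 6667, 9858 and 4570 and fell 2.93-fold in the combination. Its fall with romidepsin, 2.01-fold, was -0.87 on the log2 scale with quantile normalization. HNRNPAB read 21551, 12342, 16248.5 and 9168, a fall of 2.35-fold. HNRNPK, a poly(C)-binding protein, read 15954, 10153, 14361 and 7433, a fall of 2.15-fold. With quantile normalization HNRNPAB and HNRNPK lay at log2 differences of -0.98 and -0.85, and scaled to the spike-in controls at -0.94 and -0.81, each short of 2-fold.

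The 10 other hnRNPs, HNRNPA0, HNRNPA1, HNRNPA2B1, HNRNPA3, HNRNPC, HNRNPDL, HNRNPF, HNRNPH1, HNRNPR and HNRNPU, stayed within 2-fold in all 5 comparisons by their brightest probe sets. Their log2 differences between the combination and untreated cells lay between -0.94 and -0.21. The other probe sets of HNRNPA3 did fall. They read 2866, 1256, 3457 and 1143, and 979, 374, 1160 and 390, with log2 differences of -1.33 and -1.33 between the combination and untreated cells, against -0.73 for the one used. HNRNPC, the core particle protein, read 26087, 23213, 21375 and 13612. HNRNPA1, a repressor of exon inclusion, read 3159 untreated, 2196 with romidepsin, 3279 with tamoxifen and 2654 in the combination on a probe set that can match several transcripts. Far brighter probe sets that name HNRNPA1 together with other genes were left out of the comparisons. They read 31196, 27853, 26923 and 28009, and 28378, 25784, 23851 and 25316. Their log2 differences between the combination and untreated cells were both -0.16. HNRNPH1 read 16935, 17118, 14492 and 14569 and hardly differed between arrays.

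**Figure D4:**
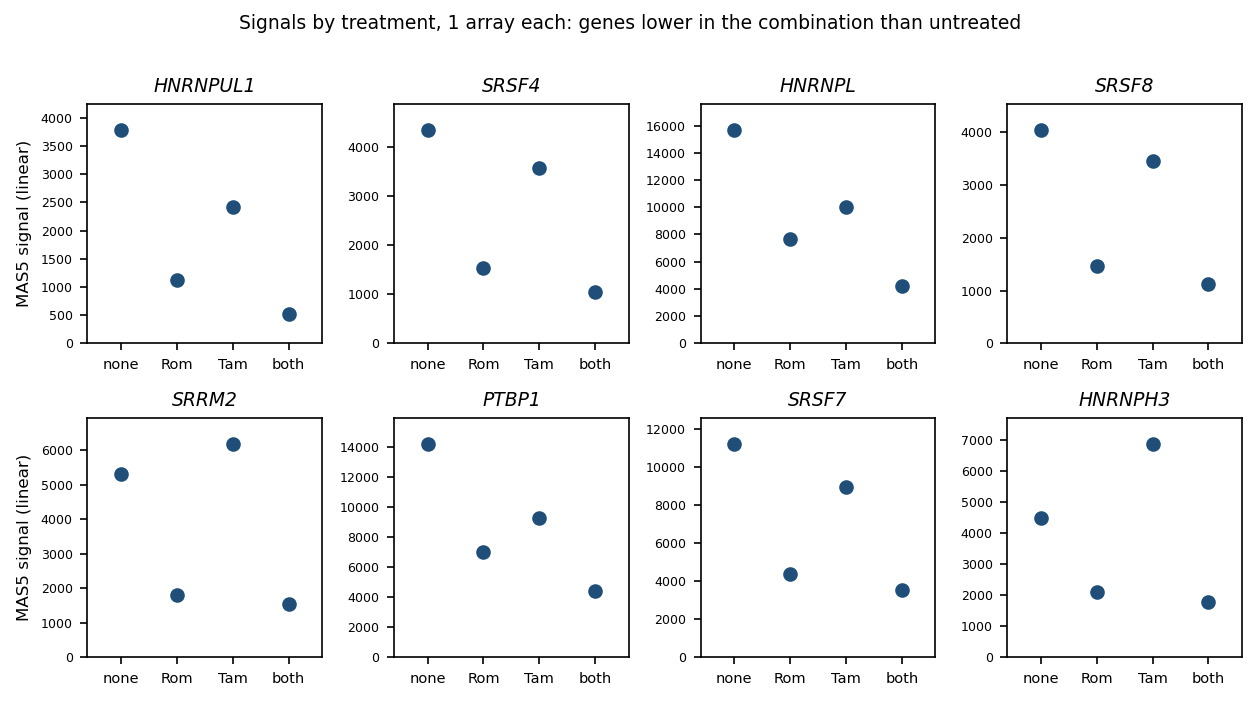
Each panel plots the linear MAS5 signal (vertical axis, from 0) of 1 gene on the 4 arrays, 1 point an array: none (untreated), Rom (romidepsin), Tam (tamoxifen) and both (the combination). All 8 genes have their lowest point with both drugs and their next lowest with romidepsin; SRRM2 and HNRNPH3 are highest with tamoxifen alone.

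Among large proteins of nuclear speckles, SRRM2, a scaffold of these bodies, read 5301 untreated, 1799 with romidepsin, 6184 with tamoxifen and 1547 in the combination. It fell 2.95-fold with romidepsin and 3.43-fold in the combination, and all 3 of its measured probe sets fell in both. SRRM1, a co-activator of splicing, read 9024, 5895, 6064 and 4068, and was 2.22-fold lower in the combination, or -0.86 on the log2 scale with arrays scaled to the spike-in controls. SON, the other speckle scaffold, read 6004, 4350, 5382 and 3728, 1.61-fold lower and within 2-fold throughout. In these genes, unlike PNISR, the combination array was the lowest.

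Of the 5 RBM proteins, only RBM10, which promotes exon skipping, differed 2-fold by its brightest probe set. It read 2155 untreated, 1081 with romidepsin, 1149 with tamoxifen and 825 in the combination, 2.61-fold below untreated cells. RBM5, RBM6, RBM25 and RBM39 had log2 differences between -0.93 and -0.18 with romidepsin and between -0.59 and 0.04 in the combination. RBM39, the target of aryl sulfonamide degraders, read 3313, 1734, 3975 and 2373. Another RBM39 probe set read 3549, 1670, 4024 and 2076, with a log2 difference of -1.09 between romidepsin and untreated cells. RBM25 was nearly level, at 1722, 1517, 1829 and 1767.

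Several probe sets of 1 gene went opposite ways. The combination and untreated arrays differed upward at least 2-fold in 17 of 161 measured probe sets of these genes, against 18.9% of all measured probe sets, and downward in 45, against 13.1%. Of the 17, 7 belonged to genes whose brightest probe set had not risen: HNRNPA1, HNRNPD, HNRNPDL, HNRNPH1, HNRNPR, RBM25 and SRPK2. Of the 45, 9 belonged to 7 genes whose brightest probe set had not fallen: HNRNPA3 and HNRNPC with 2 each, and HNRNPR, HNRNPU, LUC7L2, SRSF6 and TRA2B. A second HNRNPDL probe set read 1062 untreated, 1066 with romidepsin, 2248 with tamoxifen and 2769 in the combination, while the brightest read 4815, 3874, 4730 and 4155. For HNRNPD the probe set that was higher read 92.3, 75.4, 188 and 249, against 13369 and 4570 for the brightest in untreated cells and the combination.

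HNRNPD and HNRNPR were called both ways in the combination, 2 of 41 genes with at least 2 measured probe sets, where 0.251% of all such genes were. A gene with more probe sets has more ways to be called both ways, and these shares were not matched for that number. In HNRNPR the probe set that was higher read 108, 162, 109 and 263. Dim probe sets made up most of these readings: those of HNRNPA1, HNRNPH1, RBM25 and SRPK2 were below the floor in untreated cells. With tamoxifen alone 9 of 157 probe sets of the regulators were higher and 0 lower, with a background of 3.87% and 1.27%. Which transcript each probe set reads was not analysed here.

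**Figure D5:**
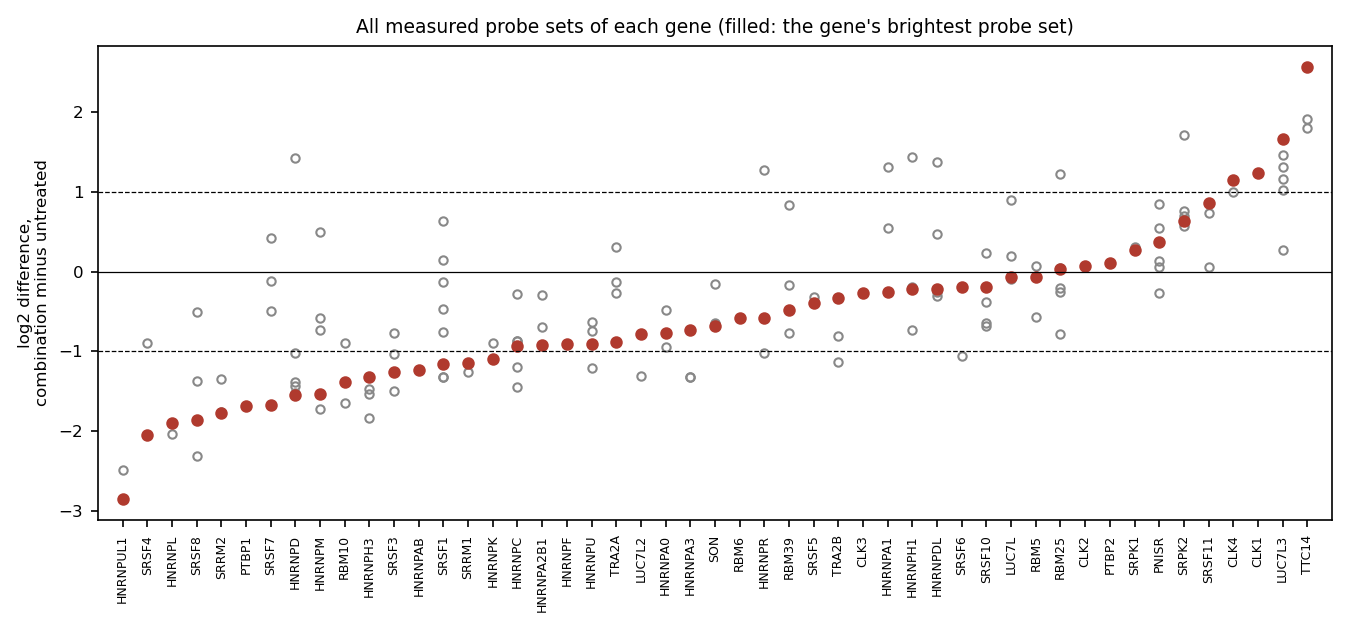
For each gene (horizontal axis, ordered by its brightest probe set), points give the log2 difference of the combination minus untreated cells (vertical axis) for every measured probe set, filled for the brightest and open for the others; dashed lines mark 2-fold. Open points above the upper line over HNRNPD, HNRNPR, HNRNPA1, HNRNPH1, HNRNPDL, RBM25 and SRPK2 belong to genes whose filled point is below it, whereas the filled points of TTC14, LUC7L3, CLK4 and CLK1 lie above it.

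The combination was also set against the sum of the effects of both drugs on the log2 scale, which uses all 4 arrays. Of the 49 genes 1 was at least 2-fold above that sum and 0 below, with a background of 0.886% and 2.23%, and the median was -0.01, beside -0.04 over all genes. CLK1 was above it by 1.04, TTC14 by 0.97, CLK4 by 0.96 and SRSF5 by 0.84. The other probe sets above the floor on all arrays gave -0.06 for TTC14, -0.03 for CLK4 and 0.75 for SRSF5. For TTC14 and CLK4 the departure was thus seen on the brightest probe set only. HNRNPH3 had the lowest value, -0.85. For HNRNPL, PTBP1 and SRSF4 the departures were -0.23, -0.05 and -0.26, so that on this scale their brightest probe sets in the combination were close to the sum. The other probe sets above the floor on all arrays gave -0.34 for HNRNPL and 0.53 for SRSF4. The CLK1 value was 0.99 with arrays scaled to the spike-in controls.

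Other genes of splicing were taken as 3 lists. The first held 31 further SR-related proteins, L-type cyclins and kinases, of which 26 were measured. In the combination 4 rose and 2 fell, with a median of -0.14, and against romidepsin alone 5 were higher and 0 lower. The background was 19.8% higher and 14.4% lower in the combination and 4.07% and 2.27% against romidepsin. RSRP1, an arginine- and serine-rich protein, read 429 untreated, 769 with romidepsin, 796 with tamoxifen and 2284 in the combination, 5.32-fold above untreated cells. CCNL1, the cyclin partner of CDK11 in splicing, read 627, 661, 1145 and 1912, 3.05-fold higher. ZRANB2 rose 2.47-fold and ACIN1 fell 2.46-fold.

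The second list held 45 other sequence-specific splicing factors, of which 38 were measured; 5 rose and 3 fell in the combination, with a median of -0.27 and the same background of 19.8% and 14.4%. MBNL3, a muscleblind protein below the floor in untreated cells, rose at least 6.34-fold to 421. RBM4 rose 5.17-fold, from 101 to 520, and RBM47 3.54-fold, from 77.0 to 273, with 391 on the romidepsin array. RBM24 fell 3.29-fold, from 3928 to 1194. Of 11 measured factors of nonsense-mediated decay, 2 fell and 0 rose, with a median of -0.33 and the same background. SMG9 was 3.74-fold lower and SMG5 2.77-fold lower, while UPF2 was at 526 untreated and 984 in the combination. The medians of the 3 lists in the combination against untreated cells lay between that of the regulators, -0.69, and 0; this did not hold in every other comparison, and the difference between lists was not tested.

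The spread that can be had from these arrays is technical. Between the 2 brightest probe sets of 1 gene the log2 differences deviated by a median of 0.12 to 0.26 over the 5 comparisons of the regulators. The largest such gap was that of SRSF4 in the combination against tamoxifen, 1.42. Variation between cultures is not in these values.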

How the data were processed

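The authors deposited 1 linear intensity for each probe set and array; the submitters' processing notes name MAS5, whose version is not given in the sources used here. RNA was extracted with TRI reagent and biotin-labelled with a 3′ IVT kit, per the labels' protocols. Each array holds 54675 probe sets, 62 of them controls. The mean after trimming 2% at each end was 500.1 on all 4 arrays; a common scaling of this kind hides any shift shared by all genes. Scanner files were not used here.

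Probe sets that the platform annotation gives to 1 gene numbered 41091, to several 1801 and to none 11721; by Entrez ID 41043 matched the RefSeq table of GRCh38.p14 and 0 symbols changed. Each gene was represented by its brightest probe set, by mean log2 signal over the 4 arrays. Values under the floor, 66.4, were set to it. A gene was measured in a comparison where at least 1 of both arrays lay above the floor. For the departure from additive effects all 4 had to.

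All listed genes may be named; 4 signals were given for those past 2-fold in any comparison, for the brightest and the most changed of each role, for a few chosen ones and for others that complete a role. From the other lists up to 4 were named, by the size of their difference between the combination and untreated cells. The genes, lists and rules were chosen with earlier results of these data known. Columns of other samples numbered 0. The steps were tested on simulated data. Python 3.11.15, numpy 2.4.6, pandas 2.3.3 and matplotlib 3.10.9 were used. The 8 alternatives vary the scaling, the floor and the probe set. No protein sequences were used here.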

Additional observations from a re-analysis of the deposited data

Results flagged for a closer look

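For 4 genes the effect of 1 drug had opposite signs without and with the other drug, each effect being larger than the median gap between probe sets of 1 gene; the difference between the 2 effects was not tested. CLK1 had a log2 difference of -0.69 with romidepsin against untreated cells and of 0.35 in the combination against tamoxifen. CLK4 had -0.65 and 0.30 in the same comparisons. SRSF5 had -0.24 with tamoxifen against untreated cells and 0.60 in the combination against romidepsin. HNRNPH3 had 0.61 and -0.24 in those. With the median over probe sets HNRNPH3 had 0.088 with tamoxifen, smaller than the median gap of 0.22 for that comparison. The signs were not opposite under every setting: scaled to the spike-in controls SRSF5 had 0.12 and 0.91 and HNRNPH3 0.97 and 0.064, and the other measured probe set of CLK4 had 0.048 and 0.019.

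The probe set of HNRNPH2, shared with its read-through gene and so left out of the comparisons, lay above its untreated level by a log2 difference of 1.10 in the combination. Its signals were 3979 untreated, 6002 with romidepsin, 6475 with tamoxifen and 8554 in the combination.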

How the results depend on the processing

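The 48 differences past 2-fold by the brightest probe sets were followed under the 8 alternatives where they could be measured, which gave 361 values. Of these, 316 stayed past 2-fold, 45 fell short of it and 0 changed sign. From using the median of all its probe sets for a gene came 16 of the 45. Differences within 2-fold were not counted here, and some of CLK4, SRSF5 and HNRNPH3 did change sign, as given above. Floors at the 25th percentile, or none, moved no count. Centring the arrays on their medians gave 16 genes lower with romidepsin, 1 lower with tamoxifen, 2 higher in the combination with a median of -0.98, 14 lower than with tamoxifen and 3 above additive effects. The shares of all genes measured, in that order, were 12.7%, 2.39%, 14.7%, 14.6% and 1.08%. Scaling to spike-in controls gave 4 higher with tamoxifen with a median of 0.32, 0 lower than with romidepsin with a median of 0.089, and 0 above additive effects. Here the shares of all genes were 11.5%, 0.648% and 0.732%. A floor at the 75th percentile gave 3 higher than with romidepsin and 0 above additive effects, beside 3.09% and 0.177% of all genes. The median over probe sets gave 2 higher with tamoxifen and 0 higher in the combination than with tamoxifen, and quantile normalization 2 higher in the latter and 3 above additive effects. All genes had shares of 2.19% and 12.4% with the median over probe sets, and of 14% and 1.06% with quantile normalization. Without probe sets that can match several transcripts, 1 was higher with romidepsin, 3 with tamoxifen, and 6 were lower in the combination with a median of -0.24; against romidepsin the median was 0.22, against tamoxifen 2 were higher and 5 lower, and 0 were above additive effects. Under this alternative 14.9% of all genes were higher with romidepsin, 3.92% higher with tamoxifen and 12.9% lower in the combination. Against tamoxifen 15.1% were higher and 11.2% lower, and 1.25% were above additive effects. The cause was not tested, except that this alternative measures fewer genes. No paired analysis was possible because each group has 1 array, and for the same reason no array could be left out.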

Other observations

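The probe sets that name a listed gene together with another gene numbered 19. The 3 of SRSF2, an SR protein of speckles, also name the microRNA gene MIR636, which lies within it; the brightest read 14966 untreated, 7664 with romidepsin, 11914 with tamoxifen and 5553 in the combination. Their log2 differences between the combination and untreated cells were -1.36, -1.43 and -1.37. The 2 of SRSF9, which also name GATC, were nearer to level, at -0.41 and -0.53. The 5 of PTBP1 that also name MIR4745 lay between -2.33 and -1.61, on the side of its own probe set at -1.69. One probe set shared by LUC7L2 and FMC1 read 769, 144, 759 and 104, low on both arrays with romidepsin.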
